A study of Mus musculus with 12 samples.

Results

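Cells that are short of oxygen stabilise the hypoxia-inducible factors (HIF), and these switch on genes far beyond glycolysis. This report describes 10 such genes outside the glycolytic pathway, Bnip3, Bnip3l, Higd1a, P4ha1, P4ha2, Ndrg1, Car9, Ankrd37, Kdm3a and Adm, in CT-26 tumors. They were taken by symbol from the 30630 genes listed for every tumor, and each symbol matched 1 Ensembl identifier. The set was chosen by known role, with the measured FPKM differences between swimming and control tumors in view. The differences of the genes between the groups are therefore given as a description, without a test.

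CT-26 cells come from a colon carcinoma of the mouse. They were injected under the skin of the right flank of male BALB/c mice bought at 4 to 6 weeks of age, and the mice were divided at random into a control group and a swimming group of 10 mice each. The swimming group trained for 3 weeks, with 2 sessions daily on 6 days of each week that were lengthened to 30 min, and the control group had no such training. RNA was sequenced from 12 tumors, 6 of each group (control 1 to control 6 and swimming 1 to swimming 6), with 1 tumor for each mouse. A tumor piece holds the cell line together with host vessels, stroma and immune cells, so that fewer cells of a type and less RNA per cell cannot be told apart.

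Values are FPKM, fragments scaled to gene length and sequencing depth, which puts genes of different length on one scale. How reads that match several genes were counted is not stated, so comparisons of level between genes are approximate. The number of reads behind them is unknown. As estimated from weakly expressed genes, the depth of control 2 was 0.688 of that of control 1, and the other tumors were between 0.877 and 0.979. Of the markers listed for the tumor cells, Vim and Krt20 were abundant, while Krt7, Epcam and Cdh1 stayed below 0.5 FPKM in all tumors. Control 1 stood apart by adipocyte genes, whose 6 levels summed to 177 FPKM against 6.92 to 15.9 in the other control tumors. Where leaving it out moved the difference of one of the 10 genes by more than 1.5 times, or turned its sign, that value is given.

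HIF is a pair of proteins that binds short DNA sites called hypoxia response elements, with the core ACGTG or GCGTG. When oxygen is present, prolyl hydroxylases mark the alpha subunit and VHL sends it to destruction. The 10 genes cover several arms of the response. Bnip3 and Bnip3l are related proteins of the outer mitochondrial membrane that send mitochondria to autophagy, and Higd1a is a small protein of the inner membrane that acts on the respiratory chain. P4ha1 and P4ha2 are the catalytic subunits of collagen prolyl 4-hydroxylase, which stabilises the collagen triple helix. Car9 is a membrane carbonic anhydrase that handles acid at the cell surface, Kdm3a removes methyl groups from lysine 9 of histone H3, and Adm encodes the vasodilator peptide adrenomedullin. Ndrg1 is a stress-responsive cytoplasmic protein, and Ankrd37 is an ankyrin repeat protein.

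Promoter windows of RefSeq on GRCm38.p6, from 250 bases before to 50 bases after a start of transcription, were available for 8 of the 10 genes, and both motif cores were searched on both strands. ACGTG was found in 6 of the 8 genes and in 19.6% of all 32851 windows. GCGTG was found in 7 of the 8 genes and in 32.4% of all windows. Either core was found in all 8 genes and in 43.8% of all windows. Since Kdm3a has 3 windows, the 8 genes have 10, of which 6 held ACGTG, 7 GCGTG and 8 either. Both cores contain a CpG, and the shares were not adjusted for CpG content. The genes were chosen as known targets of HIF, so the shares are a description and test nothing. The bases before the start are shown for Bnip3 and Car9, the 2 genes with the largest difference between the groups, for Ankrd37, with a core next to the start, and for Adm, which did not vary with the others. Capitals mark either core on either strand, and the sequences run 5′ to 3′ along the gene. They lie at chr7:138909507-138909756 (minus strand), chr4:43506776-43507025 (plus strand), chr8:45999851-46000100 (minus strand) and chr7:110627407-110627656 (plus strand).
Bnip3: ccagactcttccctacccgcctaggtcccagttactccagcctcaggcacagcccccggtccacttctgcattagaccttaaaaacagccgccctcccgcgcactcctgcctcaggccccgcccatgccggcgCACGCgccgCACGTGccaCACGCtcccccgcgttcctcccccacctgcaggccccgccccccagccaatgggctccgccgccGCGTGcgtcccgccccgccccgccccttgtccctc
Car9: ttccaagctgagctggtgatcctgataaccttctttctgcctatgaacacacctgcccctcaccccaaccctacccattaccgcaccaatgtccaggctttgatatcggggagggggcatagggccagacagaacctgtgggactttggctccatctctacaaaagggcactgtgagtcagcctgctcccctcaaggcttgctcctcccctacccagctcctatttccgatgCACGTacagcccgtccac
Ankrd37: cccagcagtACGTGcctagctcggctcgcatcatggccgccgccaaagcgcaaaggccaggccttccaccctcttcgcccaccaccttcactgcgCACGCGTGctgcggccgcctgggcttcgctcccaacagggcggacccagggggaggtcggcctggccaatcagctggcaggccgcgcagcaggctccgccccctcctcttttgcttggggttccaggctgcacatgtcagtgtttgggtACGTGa
Adm: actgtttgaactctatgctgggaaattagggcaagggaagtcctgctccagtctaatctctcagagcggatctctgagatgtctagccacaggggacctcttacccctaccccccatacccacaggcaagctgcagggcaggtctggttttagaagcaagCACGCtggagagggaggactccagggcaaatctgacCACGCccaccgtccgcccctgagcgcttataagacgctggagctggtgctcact
In Bnip3 the palindrome at bases -108 to -103 was read as ACGTG on both strands, with GCGTG cores on either side of it. Car9 held a single core, at bases -18 to -14. Ankrd37 held ACGTG at bases -241 to -237 and again at -6 to -2. Adm held no ACGTG but GCGTG at 2 places, and of 3 windows for Kdm3a only one held a core, GCGTG at bases -27 to -23. A match is a run of letters and not a measured binding site.

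Levels of the 10 genes spanned more than a decade on the FPKM scale. Over the 12 tumors the order was Ndrg1 (85.9 ± 26.8 FPKM, SD, n = 12), Bnip3 (63.6 ± 23.2 FPKM), P4ha1 (50.3 ± 9.27 FPKM), Bnip3l (30.6 ± 4.43 FPKM), Higd1a (17.8 ± 6.13 FPKM), Kdm3a (12.1 ± 1.74 FPKM), Car9 (10.7 ± 7.29 FPKM), P4ha2 (6.74 ± 2.38 FPKM), Ankrd37 (6.42 ± 2.21 FPKM) and Adm (3.09 ± 0.847 FPKM). Only 3 steps in this order were larger than the sum of both SDs, namely P4ha1 to Bnip3l, Bnip3l to Higd1a and Ankrd37 to Adm. P4ha2 and Ankrd37 were not distinct, since P4ha2 was the higher of the pair in 7 of 12 tumors. Ndrg1 was more strongly expressed than 96.8% of the 19018 genes tested and Bnip3 than 95.6%.

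Between tumors most of the genes were variable. The spread within a group, as the mean of both SDs over the mean level, was 65.3% for Car9, 34.9% for Ankrd37, 34.2% for P4ha2, 31.1% for Ndrg1, 30.1% for Bnip3, 29.8% for Higd1a and 28.5% for Adm. It was 15.8% for P4ha1, 13.6% for Bnip3l and 13.1% for Kdm3a. The median over the 12789 genes with a mean of at least 1 FPKM was 11.8%, and all 10 genes lay above it. Kdm3a, Bnip3l and P4ha1 lay nearest to that median, with a wider spread than 56.3%, 58.7% and 66.7% of the 12789 genes. From the lowest to the highest tumor, Car9 differed 8.06-fold and Kdm3a 1.74-fold.

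**Figure D1:**
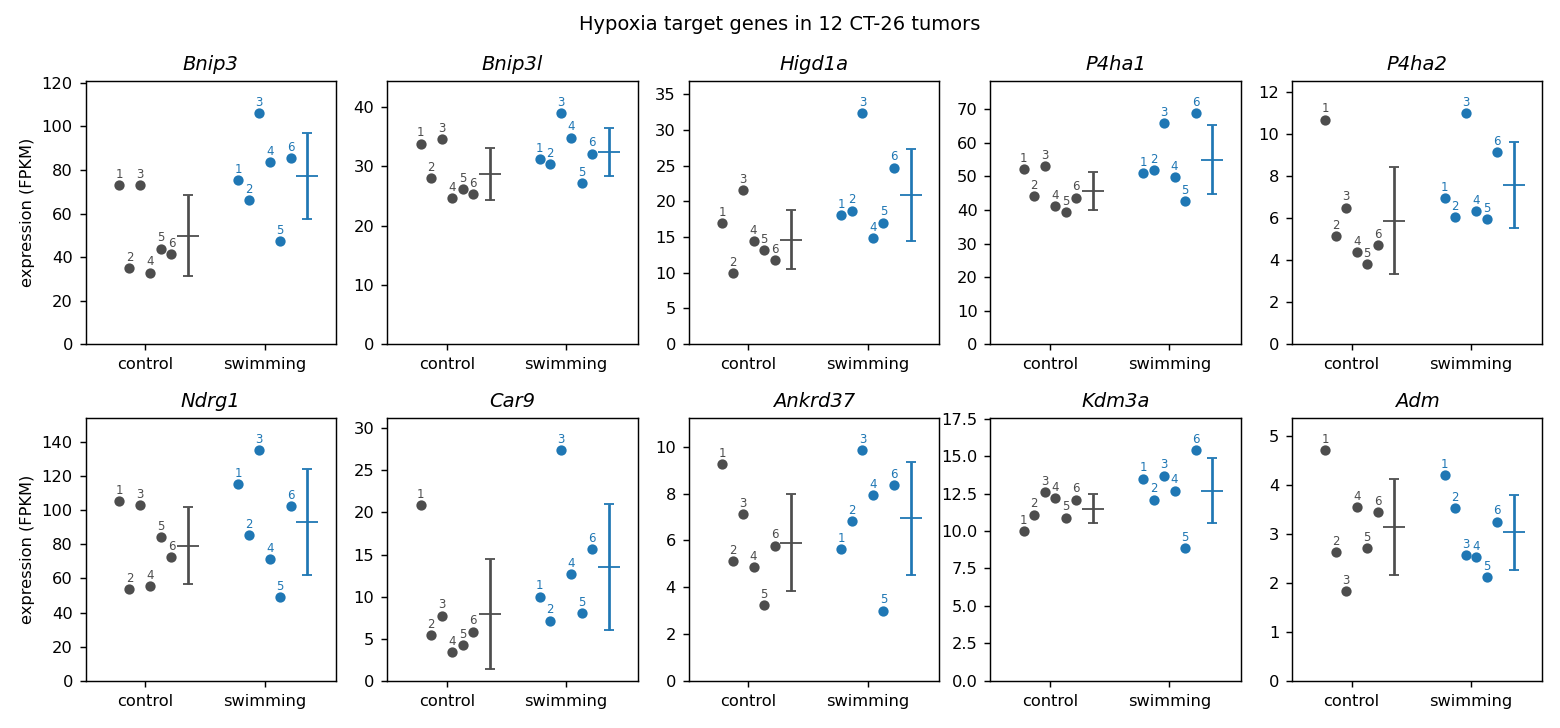
Expression of the 10 genes in FPKM (vertical axis, from 0) in 6 control and 6 swimming tumors. Points are tumors with their number and bars are mean ± SD. The values of the groups overlap in every gene, and swimming 3 is the highest tumor in 7 of the 10 genes.

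To describe how the genes differed between swimming and control tumors, each was compared on log2(FPKM + 1) in a fit over all genes. Of the 10 genes, 9 were higher on average in the swimming group, where 51.7% of all genes tested were higher. Their median log2 difference was 0.23, against 0.00 over all genes. Since the genes were chosen with this comparison in view, nothing is read from these counts and no p is given for the genes. Of all 19018 genes, 1058 (5.56%) had a p below 0.05 before adjustment in limma, 3.11% as higher and 2.46% as lower in the swimming group, and 0 had one after Benjamini-Hochberg adjustment. The values of the groups overlapped in all 10 genes, and they did not overlap in 0.147% of all genes.

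**Figure D2:**
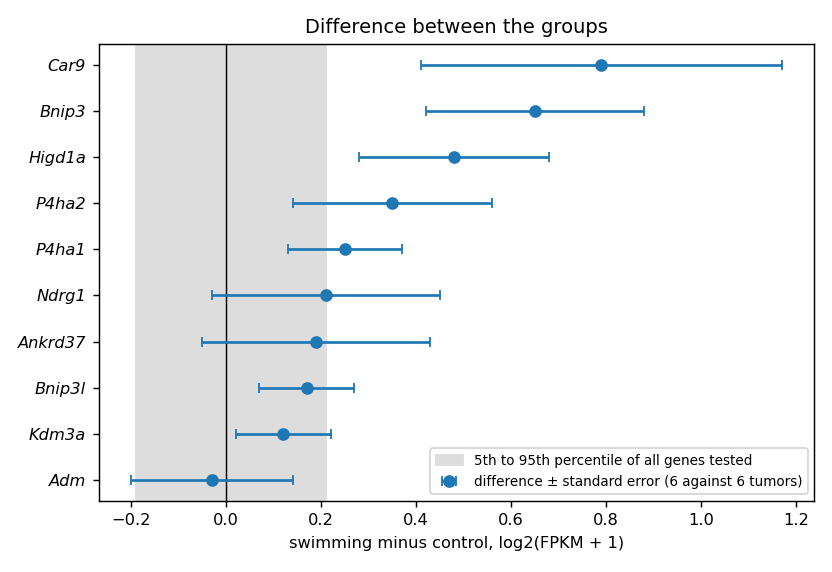
Difference between swimming and control tumors on log2(FPKM + 1) (horizontal axis) for each gene, with bars of 1 standard error. The grey band spans the 5th to the 95th percentile of all genes tested, from -0.19 to 0.21. Car9 and Bnip3 lie farthest to the right, and Adm is the one gene to the left of 0.

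Among the mitochondrial genes, Bnip3 (ENSMUSG00000078566, chromosome 7, 138890836 to 138909519 in GRCm38, 5 annotated transcripts) ran from 32.9 through a median of 42.6 to 73.2 FPKM in the control group. In the swimming group it ran from 47.2 through 79.6 to 106 FPKM. All swimming tumors lay above the control median and 4 of them above every control tumor, while control 1 and control 3, at 73.1 and 73.2 FPKM, lay within the range of the swimming group. Group means were 49.9 ± 18.5 FPKM (SD, n = 6) and 77.3 ± 19.8 FPKM (SD, n = 6), a ratio of 1.55, and the log2 difference was 0.65 with a standard error of 0.23. Bnip3l (chromosome 14, 66985239 to 67008877), its relative, moved in a narrower range. Control tumors ran from 24.6 through 27.0 to 34.5 FPKM and swimming tumors from 27.2 through 31.7 to 38.9 FPKM. Every swimming tumor was above the control median and 2 were above every control tumor. The means were 28.7 ± 4.35 and 32.4 ± 3.99 FPKM, with a log2 difference of 0.17 with a standard error of 0.10.

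For Higd1a (chromosome 9, 121848563 to 121858362) the control tumors ran from 9.96 through 13.8 to 21.6 FPKM and the swimming tumors from 14.8 through 18.4 to 32.3 FPKM. Every swimming tumor was above the control median, and 4 control tumors were below every swimming tumor. The log2 difference was 0.48 with a standard error of 0.20. Its highest value belonged to swimming 3, and without that tumor the difference was 0.35. Beside these genes, partners of mitophagy and of the BCL2 family were listed, to which Bnip3 and Bnip3l belong by their BH3 motif. Of the 11 tested, 0 passed before adjustment in either direction in limma, and their median log2 difference was -0.05. The largest was that of Bcl2l1, an inhibitor of apoptosis, at -0.32 (standard error 0.26, unadjusted p = 0.237, adjusted p = 0.92 in limma), followed by Gabarapl1, which works in autophagosome formation, at -0.11 (unadjusted p = 0.279). The difference of Bcl2l1 was -0.20 without control 5 or control 6, and that of Gabarapl1 was -0.02 without swimming 5.

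The collagen hydroxylase subunits differed in level and in spread. P4ha1 (chromosome 10, 59323296 to 59373304) ran from 39.4 through 44.0 to 53.0 FPKM in the control group and from 42.7 through 51.4 to 68.8 FPKM in the swimming group. Swimming 3 and swimming 6, at 66.0 and 68.8 FPKM, lay above every control tumor, and the other 4 lay among them. The log2 difference of P4ha1 was 0.25 with a standard error of 0.12. P4ha2 (chromosome 11, 54100095 to 54131665) ran from 3.82 through 4.93 to 10.7 FPKM and from 5.97 through 6.65 to 11.0 FPKM, a log2 difference of 0.35 with a standard error of 0.21. Control 1 was the control tumor at 10.7 FPKM, and without it the difference was 0.52. It was 0.25 without swimming 3 and 0.26 without control 5. The third catalytic subunit, P4ha3, was below 3 FPKM in all tumors, with a mean of 0.676 FPKM for control and 0.788 FPKM for swimming tumors. The beta subunit P4hb, which is also a protein disulfide isomerase, was 242 ± 23.9 FPKM and 241 ± 16.1 FPKM. Of 11 partners of collagen hydroxylation tested, 0 passed before adjustment in limma, and their largest log2 difference was that of Col1a1, at 0.27 (standard error 0.56, unadjusted p = 0.639, adjusted p = 0.975 in limma), followed by Col1a2, at 0.16 (unadjusted p = 0.447). Both moved with single tumors, Col1a1 between -0.04 (without swimming 5) and 0.65 (without control 1) and Col1a2 between 0.04 (without swimming 5) and 0.30 (without control 1).

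Car9 (chromosome 4, 43506966 to 43513729) had the largest difference of the 10 genes and the largest spread. Control tumors ran from 3.39 through 5.65 to 20.9 FPKM and swimming tumors from 7.17 through 11.3 to 27.4 FPKM. Control 1 was the only control tumor above 7.74 FPKM, and every swimming tumor was above the control median. The means were 7.93 ± 6.51 FPKM and 13.5 ± 7.48 FPKM, and the log2 difference was 0.79 with a standard error of 0.38. Without control 1 it was 1.09, and without swimming 3 it was 0.57. None of the carbonic anhydrases in the lists passed before adjustment in limma. The other membrane enzyme induced by HIF, Car12, was 1.95 ± 0.41 FPKM and 1.84 ± 0.232 FPKM, and the cytosolic Car13 was 6.58 ± 0.492 FPKM and 6.51 ± 0.496 FPKM.

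Ndrg1 (chromosome 15, 66929318 to 66969640), the most abundant of the genes, ran from 53.7 through 78.1 to 105 FPKM in the control group. In the swimming group it ran from 48.8 through 93.6 to 135 FPKM, a log2 difference of 0.21 with a standard error of 0.24. The swimming group reached beyond the control group at both ends, with swimming 5 below and swimming 1 and swimming 3 above every control tumor. The difference depended on single tumors, at 0.09 without swimming 3, 0.13 without swimming 1, 0.11 without control 2, 0.12 without control 4 and 0.37 without swimming 5. Its relatives Ndrg2, Ndrg3 and Ndrg4 were lower in level, with control means of 0.769, 5.58 and 0.11 FPKM, and none passed before adjustment in limma. Ankrd37 (chromosome 8, 45996902 to 46005707) ran from 3.24 through 5.45 to 9.25 FPKM and from 3.00 through 7.39 to 9.86 FPKM. Its log2 difference of 0.19 (standard error 0.24) depended on single tumors, at 0.31 without control 1, 0.06 without control 5, 0.09 without swimming 3 and 0.37 without swimming 5. Its exons overlap those of Ufsp2 and Lrp2bp on the opposite strand, and the library kit is not stated to keep strand, so the reads of such genes cannot be told apart. Exons of Bnip3, Higd1a, Ndrg1 and Car9 also overlap predicted genes on the opposite strand, and of those with values the highest was Gm12454 at Car9, between 0.134 and 1.24 FPKM. Ufsp2 was between 6.25 and 7.8 FPKM and Lrp2bp between 0.113 and 0.485 FPKM in the 12 tumors.

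Kdm3a (chromosome 6, 71588972 to 71632990) was the steadiest gene in the control group, from 10 through 11.6 to 12.6 FPKM. The swimming group was wider, from 8.85 through 13.1 to 15.4 FPKM, with 4 tumors above and swimming 5 below every control tumor. The log2 difference was 0.12 with a standard error of 0.10, and it was 0.08 without control 1, 0.21 without swimming 5 and 0.06 without swimming 6. The related demethylase Kdm3b was 9.89 ± 0.437 FPKM and 9.53 ± 0.43 FPKM, and Jmjd1c was 5.08 ± 0.598 FPKM and 4.64 ± 0.475 FPKM. Neither passed before adjustment in limma (unadjusted p = 0.322 and 0.202, adjusted p = 0.934 and 0.917).

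Adm (chromosome 7, 110627661 to 110629820) was the one gene that was not higher on average in the swimming group. It ran from 1.83 through 3.08 to 4.71 FPKM in the control group and from 2.11 through 2.91 to 4.2 FPKM in the swimming group. The highest tumor was control 1 and the lowest control 3, and 3 swimming tumors lay above the control median. The log2 difference was -0.03 with a standard error of 0.17, and it was positive in 5 of the 12 fits that left out a tumor, those without control 1 (0.07), control 4, swimming 3, swimming 4 or swimming 5. Adrenomedullin acts through the receptor Calcrl together with the accessory proteins Ramp2 or Ramp3. Calcrl was 3.07 ± 0.281 FPKM and 3.13 ± 0.369 FPKM, and Ramp2 was 3.95 ± 2.07 FPKM and 3.54 ± 0.861 FPKM. Of 6 genes of this ligand and receptor list tested, 0 passed before adjustment in limma, and the largest log2 difference was 0.12 for Ramp3 (adjusted p = 0.944), followed by -0.04 for the related peptide Adm2. The difference of Ramp3 was 0.24 without control 5 (unadjusted p = 0.0256) and 0.06 without control 4 or control 6.

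Tumors ranked alike in most of the genes. A score was computed for each tumor as the mean over the 10 genes of its log2 value minus the gene's mean over all tumors. The score was highest in swimming 3 (0.60), swimming 6 (0.39) and control 1 (0.35), and lowest in control 4 (-0.39), control 5 (-0.38), control 2 (-0.37) and swimming 5 (-0.33). Swimming 3 was the highest of all tumors in 7 of the 10 genes, and the exceptions were P4ha1 and Kdm3a, led by swimming 6, and Adm, led by control 1. Swimming 6 was above the median of the 12 tumors in all 10 genes, while control 2 and control 5 were above it in 0. The mean score was -0.16 ± 0.31 (SD, n = 6) in the control group and 0.16 ± 0.32 (SD, n = 6) in the swimming group. Each group thus held tumors of high and of low level, control 1 and control 3 on one side and swimming 5 on the other.

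**Figure D3:**
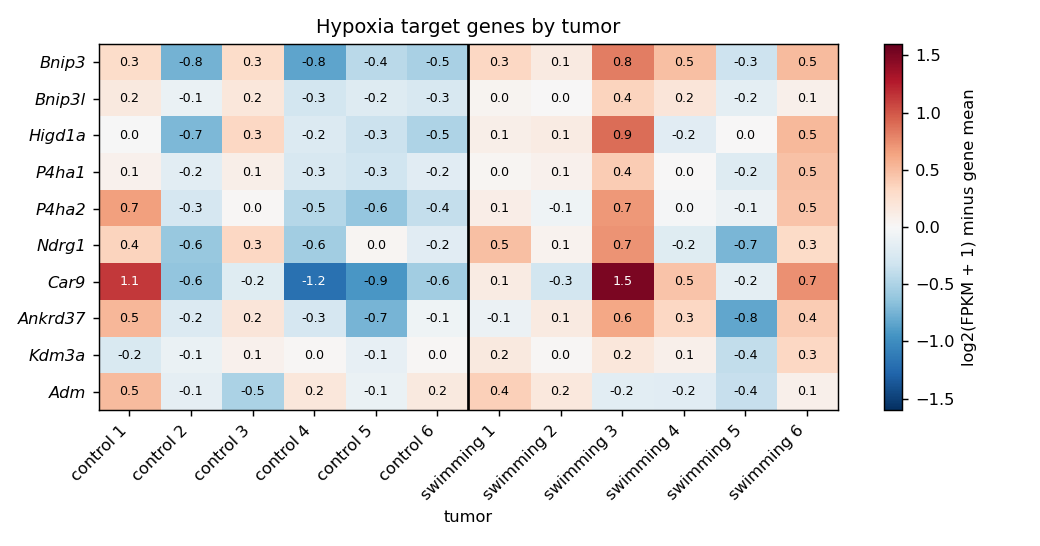
Expression of each gene (rows) in each tumor (columns) on log2(FPKM + 1), as the difference from the gene's mean over the 12 tumors (color, with the value in each cell). The columns of swimming 3, swimming 6 and control 1 are mostly red, and those of control 2, control 4 and control 5 mostly blue. The row of Adm does not follow the others, and that of Kdm3a follows them in the swimming tumors but not in the control tumors.

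Genes were then compared with each other across tumors, after the mean of each group had been subtracted, so that the difference between the groups plays no part. The correlations are a description and share libraries, depth and tumor piece. Over the 45 pairs the median r was 0.66 (range -0.11 to 0.95) and the median rho was 0.64, with 12 tumors. With the 2 tumors farthest from the median of the first gene of each pair left out, the median r was 0.60. Among the 8 genes other than Kdm3a and Adm, a grouping made after the values were seen, all 28 pairs had an r between 0.55 and 0.95, with a median of 0.77. Within each group alone the median was 0.79. The closest pairs were P4ha2 with Car9 (r = 0.95, rho = 0.89) and Bnip3 with Bnip3l (r = 0.93, rho = 0.91). Without swimming 3 and control 1, r was 0.82 for the first pair, and without control 4 and control 2 it was 0.96 for the second.

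Adm went its own way, with an r between -0.11 and 0.27 to the other 9 genes. For Kdm3a the r with the other genes was between 0.13 and 0.62. It was positive within the swimming group for all 9 and negative within the control group for 8 of them, the exception being Higd1a (0.19). Examples, control before swimming, were Bnip3 (-0.22 and 0.87), Car9 (-0.60 and 0.59) and Ndrg1 (-0.25 and 0.85). With 6 tumors in each group, these are values only, and the difference between them was not tested.

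**Figure D4:**
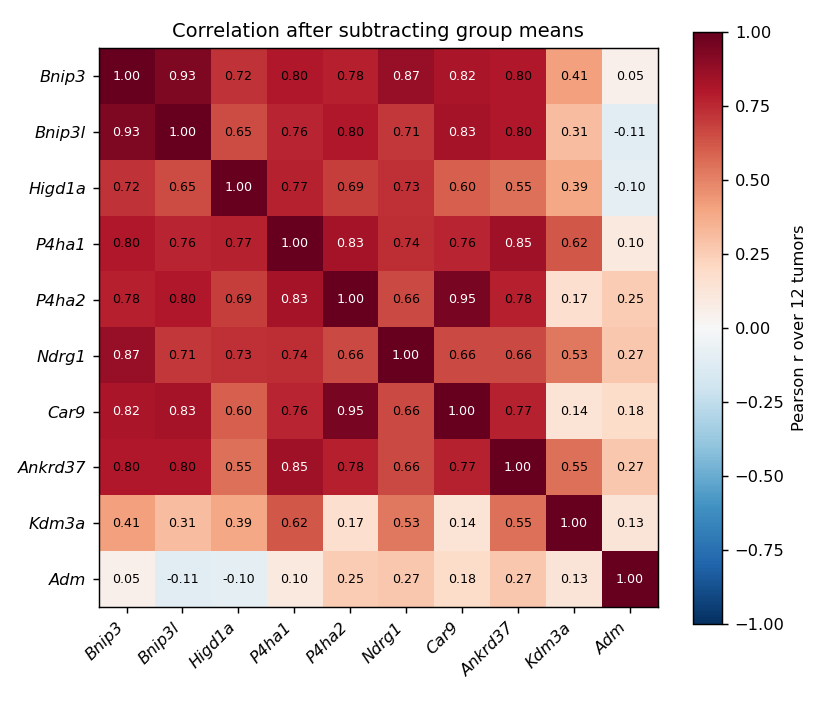
Pearson correlation between the genes over 12 tumors, on log2(FPKM + 1) with group means subtracted (color, with the value in each cell). The block from Bnip3 to Ankrd37 is at 0.55 or above, while the row of Adm reaches at most 0.27 outside the diagonal.

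The same subtraction was used to find the genes whose pattern was most like the score of the 10 genes. The search covered 12717 other genes with a mean of at least 1 FPKM, without those in the lists of cell markers. The 4 closest were Fam162a (r = 0.959, rho = 0.944), Gpi1 (r = 0.957, rho = 0.965), Aldoa (r = 0.956, rho = 0.86) and Pgk1 (r = 0.945, rho = 0.839). Without swimming 3 and control 4, the tumors farthest from the median score, r was between 0.932 and 0.957. The genes were picked by their r in these same tumors, so the values are a description and no independent check. Gpi1, Aldoa and Pgk1 are enzymes of glycolysis, and Fam162a is a mitochondrial protein also known as a HIF target. Fam162a averaged 140 ± 33.2 FPKM over control and 171 ± 31.8 FPKM over swimming tumors, a log2 difference of 0.30 (standard error 0.15, unadjusted p = 0.0649, adjusted p = 0.889 in limma). That p was 0.00927 without control 1, 0.0397 without control 3 and 0.0316 without swimming 5. With another tumor left out it rose to as much as 0.151. The log2 differences of Gpi1, Aldoa and Pgk1 were 0.19, 0.21 and 0.25, with unadjusted p of 0.144, 0.159 and 0.118 in limma. The p of Gpi1 fell below 0.05 without control 1, and that of Pgk1 without control 1 or swimming 5. In other such fits the p of Gpi1 rose to as much as 0.31 and that of Pgk1 to 0.266. Without swimming 3 the differences of Gpi1 and Aldoa were 0.12 and 0.11.

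To place the 10 genes within the hypoxia response, other lists of the pathway were read from the same fit. The pathway and marker lists were also chosen with earlier results of these data known. Their counts and p-values are therefore a description, and nothing is concluded from their distance to the shares over all genes. In the glycolysis list, 21 of 21 genes were higher in the swimming group, with a median log2 difference of 0.21, which ran from 0.15 to 0.26 with a tumor left out. Before adjustment in limma, 5 of the 21 passed, Hk1, Pfkl, Pfkfb3, Aldoc and Eno1, all higher, where 3.11% of all genes passed in that direction, and 0 passed after adjustment. Hexokinase 1 (Hk1) was 14.3 ± 3.17 FPKM and 18.0 ± 1.83 FPKM, a log2 difference of 0.33 (standard error 0.12, unadjusted p = 0.0179, adjusted p = 0.889 in limma), with all 6 swimming tumors above the control median. The brain-type aldolase Aldoc, at 1.01 ± 0.347 FPKM and 1.73 ± 0.561 FPKM, differed by 0.43 (unadjusted p = 0.0135, adjusted p = 0.889 in limma). Hk1 and Aldoc kept a p below 0.05 whichever tumor was left out. Eno1 lost it without control 6 (0.0507), and Pfkl and Pfkfb3 lost it in 7 of the 12 such fits each, with p up to 0.0872 and 0.095. This list and the 10 genes come from the same tumors and are not independent of each other.

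In a list of other HIF-induced genes outside glycolysis, 35 were tested and 23 were higher in the swimming group (65.7%, against 51.7% of all genes), with a median log2 difference of 0.05. With a tumor left out that median ran from 0.01 (without control 2 or swimming 3) to 0.08. Before adjustment in limma, 2 passed as higher, Insig2 and Ccng2, and 2 as lower, Errfi1 and Rab20, with an adjusted p of 0.889 each. These 4 calls are 11.4% of the list, against 5.56% of all genes. Insig2, which restrains sterol synthesis, was 12.3 ± 0.775 FPKM and 13.8 ± 0.554 FPKM (log2 difference 0.16, standard error 0.05, unadjusted p = 0.0066 in limma). Errfi1, an inhibitor of the EGF receptor, was 119 ± 15.2 FPKM and 96.8 ± 18.1 FPKM (log2 difference -0.30, unadjusted p = 0.026 in limma). Rab20, a small GTPase of vesicles, was 4.24 ± 0.711 FPKM and 3.13 ± 0.857 FPKM (log2 difference -0.36, unadjusted p = 0.0246 in limma). The call of Insig2 held whichever tumor was left out, while that of Rab20 was lost without control 4 or swimming 4. The calls of Errfi1 and Ccng2 were lost in 5 and 8 of the 12 such fits, with p up to 0.0622 and 0.0835. Ddit4, an inhibitor of mTOR signaling, differed by -0.36 without passing (unadjusted p = 0.255, adjusted p = 0.925 in limma), and it depended on single tumors, at -0.17 without control 2, -0.22 without control 1, -0.23 without swimming 5 and -0.58 without control 4 (unadjusted p = 0.0446).

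Of the HIF subunits and oxygen sensors, 13 were tested, 9 were higher (69.2%) and 1, Vhl, passed before adjustment in limma. That is 7.69% of the list, near the 5.56% of all genes. Vhl was 9.84 ± 1.06 FPKM and 11.4 ± 0.816 FPKM, a log2 difference of 0.20 (standard error 0.07, unadjusted p = 0.0162, adjusted p = 0.889). Egln3, an oxygen-sensing hydroxylase that HIF itself induces, was 1.93 ± 0.418 FPKM and 2.33 ± 0.629 FPKM, a log2 difference of 0.18 (unadjusted p = 0.213, adjusted p = 0.917 in limma). The difference was 0.27 without swimming 5 (unadjusted p = 0.0349) and 0.12 without swimming 2 or swimming 3. Among 11 tested relatives of the 10 genes, 0 passed before adjustment in limma. The largest log2 differences were those of Ankrd9, at 0.24 (unadjusted p = 0.0835, adjusted p = 0.889 in limma), and Car4, at 0.11 (unadjusted p = 0.497, adjusted p = 0.957 in limma). With a tumor left out, the unadjusted p of Ankrd9 in limma ran from 0.0167 (without swimming 2) to 0.191.

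**Figure D5:**
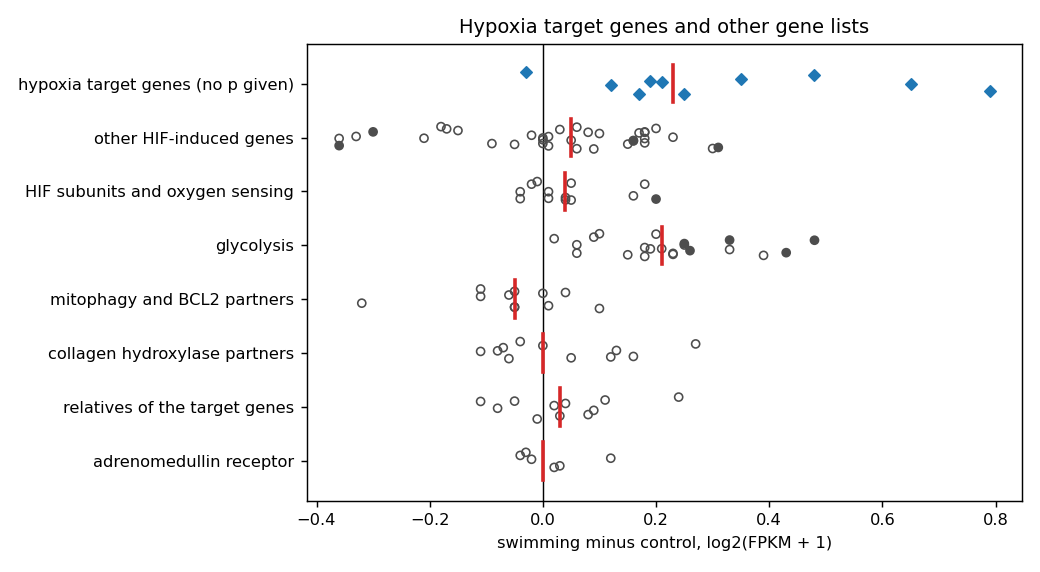
Difference between swimming and control tumors on log2(FPKM + 1) (horizontal axis) for single genes of each list (rows). Filled circles have a p below 0.05 before adjustment in limma, diamonds are the 10 genes, for which no p is given, and red bars are medians. Medians are 0.23 for the 10 genes, 0.21 for glycolysis and between -0.05 and 0.05 for the other lists.

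With group means subtracted, the score of the 10 genes had an r over 12 tumors of 0.94 with the glycolysis list, 0.87 with the other HIF-induced genes, 0.64 with the mitophagy and BCL2 list, 0.63 with the HIF subunits and oxygen sensors, 0.33 with the adrenomedullin receptor list, 0.22 with the relatives and 0.15 with the collagen hydroxylation list. These values were also taken without swimming 3 and control 4, the tumors farthest from the median score. In the same order, r was then 0.93, 0.83, 0.54, 0.47, 0.26, 0.09 and 0.03. Markers of other cells in the tumor piece were set beside the score in the same way. The r was 0.46 for neutrophils, 0.33 for adipocytes, 0.18 for T and NK cells, 0.11 for fibroblasts, 0.00 for red cells, -0.08 for endothelial cells, -0.09 for CT-26 tumor cells, -0.11 for proliferation, -0.19 for skeletal muscle and -0.39 for macrophages. Without those tumors, r in this order was 0.50, 0.33, 0.21, -0.01, 0.14, -0.05, -0.03, -0.11, -0.42 and -0.33. For adipocytes the rho over all tumors was 0.10. The CT-26 score is a weak measure of tumor cells, since 3 of its 7 markers were below 0.5 FPKM in all tumors. It was 0.66 in control 4, where Krt8 was 129 FPKM against 1.86 to 19.9 FPKM in the other tumors. Some lists moved with the groups or with a tumor named above. Of 8 markers of T and NK cells, 8 were higher in the swimming group and 4 passed before adjustment in limma, against 51.7% and 5.56% of all genes, with summed levels of 6.1 to 14.5 FPKM in control and 8.75 to 23.8 FPKM in swimming tumors. Of 10 skeletal muscle markers, 9 were higher and 0 passed. Of 8 proliferation markers, 7 were higher, with a median log2 difference of 0.19, and 1 passed before adjustment in limma, Mki67 (unadjusted p = 0.0119, adjusted p = 0.889). Of 5 red cell genes, 0 were higher on log2(FPKM + 1) and 0 passed, with a median of -0.18. In mean FPKM, Hba-a1, Hba-a2, Hbb-bt and Alas2 were higher in the swimming group and Hbb-bs was not. Their summed level was 1240 FPKM in swimming 4 and 152 to 363 FPKM in the other swimming tumors. Swimming 5, the swimming tumor with the lowest score, had the highest summed level of its group for markers of skeletal muscle (327 FPKM), fibroblasts (158 FPKM), endothelial cells (65.8 FPKM) and macrophages (1210 FPKM). It was also the highest of its group for T and NK cells (23.8 FPKM) and adipocytes (44.1 FPKM). Over the other 5 swimming tumors, skeletal muscle markers ran from 2.5 FPKM in swimming 6 to 222 FPKM in swimming 3, the swimming tumors with the highest scores. Control 1, the control tumor with the highest score, was likewise the highest of its group for fibroblasts (163 FPKM), endothelial cells (72.4 FPKM) and macrophages (1060 FPKM). No marker of these lists was at 0 in all tumors. The part of these cells in the differences of the 10 genes was not tested. Without swimming 5 the median log2 difference of the 10 genes was 0.37, without control 1 it was 0.31, and without swimming 3 it was 0.16.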

How the data were processed

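RNA-Seq was performed on 12 CT-26 tumors, 6 per group, after removal of ribosomal RNA. The authors mapped reads with HISAT2 2.0.5 and quantified genes with StringTie 1.3.3, and deposited one FPKM value per gene and tumor. The methods name hg38 and the submitters' processing notes also list GRCm38. The files hold mouse Ensembl identifiers, 30542 of 30630 of which were named from GENCODE M21, and coordinates are from that annotation. Read numbers are unknown, so no counting error is given. By the estimate from weakly expressed genes, control 2 was the shallowest library, and weak genes would be measured least well there. The number of genes above 0 did not single it out, at 22953 against 22848 in control 3 and 22293 in control 5.

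Genes that reached 0.1 FPKM in 6 or more tumors (19018) were compared as log2(FPKM + 1). This scale understates changes of weakly expressed genes. A linear model of the 2 groups without covariates was fitted in limma 3.58.1 (R 4.3.3), with variances moderated by eBayes along a trend on expression and Benjamini-Hochberg adjustment, and was tested on simulated data. The p-values weigh the difference between the groups against the spread between tumors, each from a different mouse. Other values were computed in Python 3.11.15 (pandas 2.3.3, scipy 1.17.1), and plots were drawn with matplotlib 3.10.9.

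The 10 genes and all lists were chosen with earlier results of these data known. Other genes are named where they are in a pathway list and have a p below 0.05 before adjustment or one of the 2 largest differences of their list, or are among the 5 genes most like the score, of which 1 is not reported here. Partners and relatives without a call were named after their values were seen. Alternatives were pseudocounts of 0.1 and 0.01, dropping the filter or raising it to 1 FPKM, trimmed mean scaling, quantile normalization, eBayes without trend, a block for replicate numbers, and each tumor removed in turn. No tumor was left out of the main comparison.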

Additional observations from a re-analysis of the deposited data

Results flagged for a closer look

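Dixon's ratio was used on 106 groups of 6 values to find single tumors distant from the rest, and 8 were found, where chance gives about 1 in 20, or 5.3. Of the 10 hypoxia target genes, Car9 was found, at 20.9 FPKM in control 1 against 3.39 to 7.74 FPKM in the other control tumors. In control 1 the score of the other HIF-induced genes was 0.27 (others -0.12 to -0.01) and that of adipocyte genes was 2.41 (others -0.75 to -0.02). Insig2 was 13.8 FPKM in control 3 (others 11.4 to 12.2 FPKM), and Ramp3 was 1.44 FPKM in control 5 (others 0.279 to 0.599 FPKM). In the swimming group, Car4 was 1.71 FPKM in swimming 3 (others 0.494 to 0.891 FPKM). The macrophage score of swimming 5 was 0.29 (others -0.07 to -0.02), and the neutrophil score of swimming 6 was 0.47 (others -0.17 to 0.04).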

How the results depend on the processing

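Genes with a p below 0.05 before adjustment numbered 1058, and from 729 (filter of 1 FPKM) to 1445 (no filter) under other settings and from 833 to 1443 with a tumor left out. An adjusted p below 0.05 in limma was reached by 0 genes, except 3 without control 4 and 2 without swimming 1. The median log2 difference of the 10 genes was 0.23 or 0.24 under every other setting and between 0.16 (without swimming 3) and 0.37 (without swimming 5) with a tumor left out. The number of the 10 genes that were higher was 9 or 10. In 20 alternatives each, 9 genes kept a positive difference, and Adm was negative in 15 and positive in 5. With a tumor left out, the log2 difference of Col1a1 ran from -0.04 (without swimming 5) to 0.65 (without control 1) and that of Car4 from -0.01 (without swimming 3) to 0.21, and the cause was not tested. The numbers 1 to 6 occur in both groups but belong to different mice, and the deviations of same-numbered tumors had a mean correlation of -0.12. When replicate numbers were blocked, 892 genes had a p below 0.05 before adjustment, and the median of the 10 genes was 0.23. Under the block the p of Pfkfb3 in limma was 0.0564 and that of Fam162a 0.0406. With no filter the p of Pfkfb3 in limma was 0.0505. The depth is unknown, which limits what can be said of weakly expressed genes.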
